A study of Mus musculus with 6 samples.

Results

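Capillary endothelial cells were studied as they occur in the brain of 12-month-old mice with and without amyloid pathology. A cell was called capillary by its unique molecular identifiers (UMIs), the tags that mark single captured RNA molecules. It had to hold at least 2 UMIs in sum of *Car4*, *Ndnf*, *Slc22a8* and *Mfsd2a*, no UMI of the arterial genes *Gkn3*, *Cytl1*, *Fbln5* and *Mgp*, and at most 1 UMI each in sum of the arteriolar genes *Hey1*, *Stmn2*, *Sema3g* and *Unc5b* and of the venous genes *Ackr1*, *Lcn2*, *Adgrg6* and *Lrg1*. It also had to be endothelial, with at least 6 UMIs of *Cldn5*, *Flt1*, *Ly6c1* and *Itm2a*, none of the microglial genes *Cx3cr1*, *Aif1* and *Csf1r*, and at most 1 of *Plvap*, a marker of fenestrated endothelium. This gave 10201 capillary cells among 22886 endothelial cells (44.6%) and among 44112 cells that passed the quality filter, of 49059 deposited. For comparison, 8290 endothelial cells were arterial or arteriolar and 361 were venous by the same marker lists.

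The cells came from male C57BL/6J wild-type (WT) mice, 3 in number, and 3 *TgApp* ArcSwe mice, all aged 12 months and untreated, with 1 single-cell library from the cerebrum of 1 hemisphere per mouse. The *TgApp* ArcSwe line carries human *App* with the Arctic and Swedish mutations and is described by the study as having amyloid in the vessel wall (cerebral amyloid angiopathy) beside parenchymal plaques. The promoter that drives the transgene is not given in the sources used here. Vascular fragments were bound to CD31 beads before they were dissociated, so the cells are those that survived the digestion and the capture, and shares of cells are shares of captured cells. The comparison asks whether the transcription of the barrier-forming endothelium differs in a mouse with vascular amyloid.

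The WT mice gave 1736, 1592 and 1525 capillary cells and the *TgApp* ArcSwe mice 2201, 798 and 2349. Their UMIs were summed per mouse, to 8216682, 7662540 and 6004108 in WT mice and to 9880474, 4784878 and 7792610 in *TgApp* ArcSwe mice, and levels are given as counts per 1000000 UMIs of these sums (CPM). The median capillary cell held between 2759 UMIs (*TgApp* ArcSwe replicate 3) and 5140 UMIs (*TgApp* ArcSwe replicate 2). Between 0 and 2 capillary cell barcodes were shared by any of the 15 pairs of libraries.

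A pair of libraries stood apart. Over 5525 genes the log levels of WT replicate 3 correlated with those of the other mice at 0.956 to 0.975 and those of *TgApp* ArcSwe replicate 3 at 0.971 to 0.982, against 0.981 to 0.989 among the other 4. RNA of other cells was unequal in the same libraries. The summed level of 12 microglial markers was 203, 251 and 751 CPM in WT mice and 445, 248 and 1165 CPM in *TgApp* ArcSwe mice, with no marker at 0. All 12 had a log2 fold change above 0 and none an unadjusted p under 0.05, and their median of 0.79 was -0.34 without *TgApp* ArcSwe replicate 3, 1.94 without WT replicate 3 and 0.63, with all 12 above 0, without both. The summed level of 9 pericyte markers was 66.5, 58.3 and 96.4 CPM against 58.9, 109 and 220 CPM, led by *Rgs5*, and that of 5 smooth muscle markers 177, 206 and 178 CPM against 114, 141 and 417 CPM, led by *Acta2*. Erythroid markers summed to 10539, 12445 and 3729 CPM against 11548, 10184 and 5301 CPM, led by *Hbb-bs*. Their sum was lowest in both mice numbered 3, but the share of capillary cells with an erythroid UMI was highest there, at 68.7% and 77.0% against 11.5% to 25.9% in the other 4. Before the rule removed them, 11.6%, 13.2% and 34.5% of the endothelial cells of the WT mice and 24.3%, 12.2% and 42.0% of those of the *TgApp* ArcSwe mice carried a UMI of *Cx3cr1*, *Aif1* or *Csf1r*. The main results are therefore also given without both mice numbered 3, and the part of foreign RNA in any result was not tested.

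Capillaries are the narrowest and most numerous vessels of the brain, and their endothelium forms the blood-brain barrier together with pericytes and the end-feet of astrocytes. Tight junctions close the path between the cells, transcytosis is kept low, and nutrients cross through carriers for glucose, amino acids, lactate, lipids and iron, while efflux pumps return drugs to the blood. Endothelial cells change gradually in gene expression from arteries through capillaries to veins, so that the border of a capillary class is a range on a continuum. The rule genes belong to this barrier biology. *Car4* encodes a carbonic anhydrase on the luminal surface, *Slc22a8* an organic anion transporter, *Mfsd2a* a carrier of lysophospholipids that also restrains transcytosis, and *Ndnf* a secreted factor that acts on neurons and endothelium.

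The cells were chosen by the UMIs of these 4 rule genes, so the levels of the 4 are a description. *Car4* lay between 819 and 940 CPM (median 891) over the 6 mice in capillary cells, between 131 and 202 CPM (median 158) in arterial cells and between 286 and 478 CPM (median 360) in venous cells. *Ndnf* lay between 204 and 365 CPM (median 310), between 39.7 and 76.7 CPM (median 50.9) and between 129 and 172 CPM (median 141), respectively. *Slc22a8* lay between 372 and 464 CPM (median 395), between 121 and 189 CPM (median 142) and between 200 and 381 CPM (median 298). *Mfsd2a* behaved differently from the other three, because its neighbour in level was the arterial class. It had 210 to 297 CPM (median 269) in capillary cells, 131 to 230 CPM (median 192) in arterial cells and 50.6 to 92.2 CPM (median 65.7) in venous cells. Among endothelial cells that met the limits on arterial, arteriolar and venous UMIs, 1293 held exactly 2 rule UMIs and were just inside the rule, with a median depth of 2298 to 3961 UMIs over the mice. Just outside it, 1312 cells held 1 rule UMI, with a median depth of 2118 to 2936 UMIs, and a further 1305 held none.

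**Figure D1:**
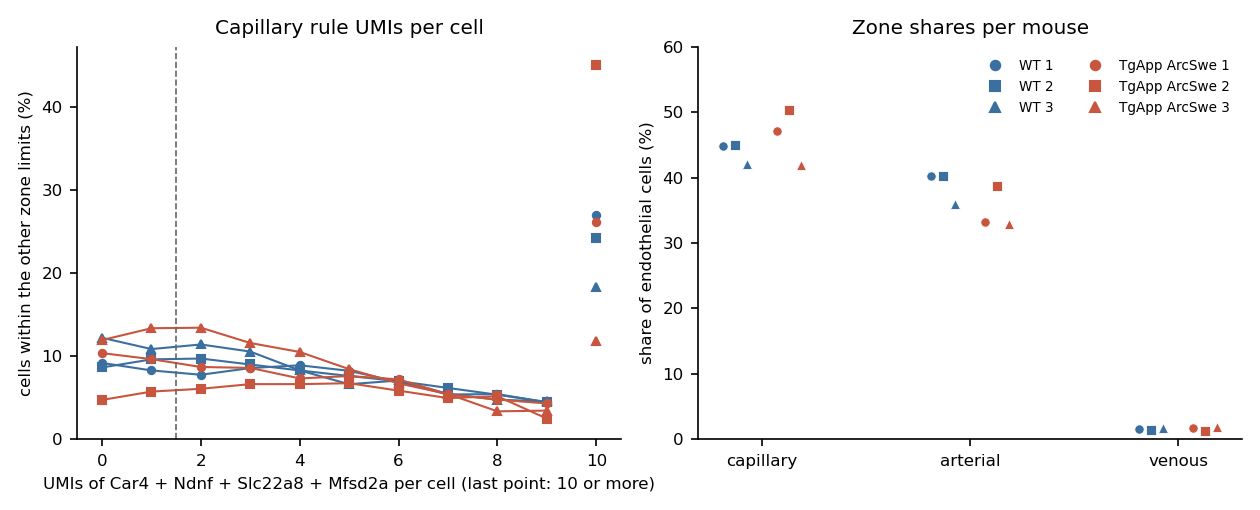
Left, among endothelial cells that met the limits on arterial, arteriolar and venous UMIs, the share (%, vertical axis) that held each number of UMIs of the 4 capillary rule genes (horizontal axis, the last point pools 10 or more), for each mouse, with the threshold as a dashed line; the cells just inside (1293) and just outside (1312) were about equally many. Right, the capillary, arterial and venous shares of endothelial cells (%) with 1 point per mouse; capillary shares lay between 41.9% and 50.3%.

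Genes that the rule did not count were used to check the label. Of 12 capillary genes outside the rule, 8 were higher in capillary than in arterial cells in all 6 mice, where 25.6% of the 6586 genes with at least 20 CPM in capillary cells were, and 11 were higher than in venous cells in all 6 mice, where 16% were. Since the classes were cut from the same counts, these zone comparisons have no test. *Tfrc*, the transferrin receptor that takes iron into the barrier, lay between 368 and 544 CPM (median 425) in capillary cells, 116 and 259 CPM (median 155) in arterial cells and 129 and 246 CPM (median 238) in venous cells. *Slc16a1*, the carrier of lactate and ketone bodies, lay between 333 and 539 CPM (median 405), 101 and 180 CPM (median 112) and 198 and 353 CPM (median 304), so that capillary and venous ranges overlapped over the mice. *Hmcn1*, which encodes an extracellular matrix protein, had 879 to 1074 CPM (median 973), against 268 to 480 CPM (median 320) and 190 to 398 CPM (median 232). Within each of the 6 mice, all 3 genes were highest in capillary cells. Other capillary genes stood apart from the venous class and lay close to the arterial level. *Cxcl12*, a chemokine of arterial and capillary endothelium, had 1648 to 2905 CPM (median 2138) in capillary cells and 1357 to 2750 CPM (median 2258) in arterial cells, against 265 to 572 CPM (median 337) in venous cells. It was higher in capillary than in arterial cells in 5 of 6 mice. *Rgcc* (mean ratio of capillary over arterial level 1.06) was so in 5 of 6 mice and *Spock2* (1.16) in 6 of 6, with overlapping ranges. *Slc9a3r2*, a scaffold protein, was lower in capillary than in arterial cells in every mouse, at 588 to 809 CPM (median 656) against 887 to 1146 CPM (median 981).

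**Figure D2:**
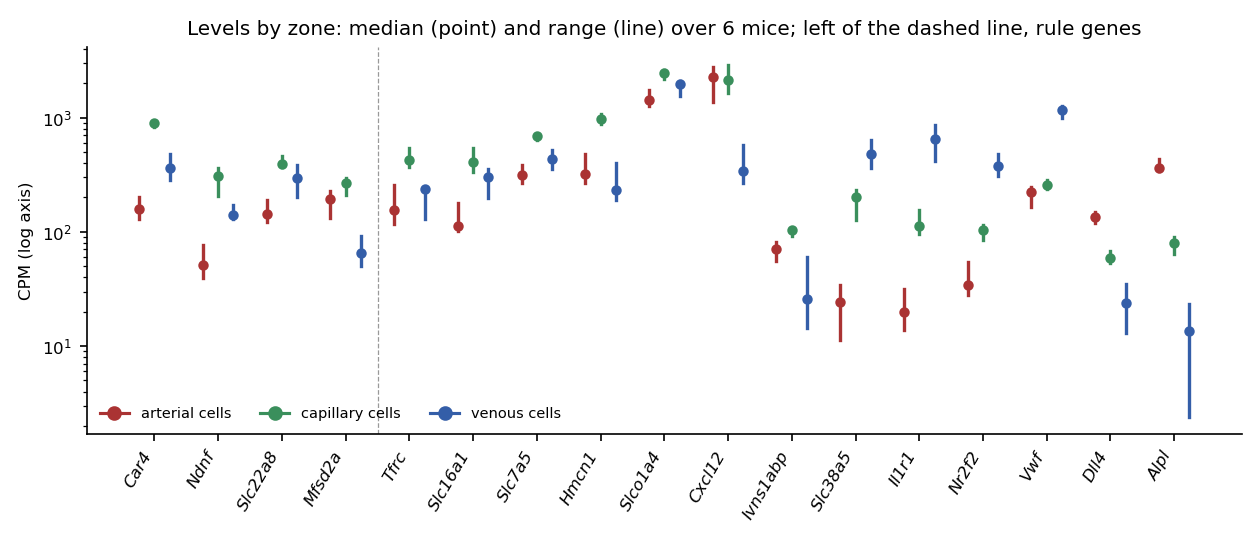
CPM on a log axis (vertical) of 4 rule genes, left of the dashed line, and 13 other genes (horizontal) in arterial, capillary and venous endothelial cells; points are medians and lines the range over 6 mice. *Car4*, *Ndnf* and *Hmcn1* were highest in capillary cells, while *Slc38a5*, *Il1r1* and *Nr2f2* lay between the arterial and the venous level.

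Most carriers of the list were higher in capillary than in arterial cells. Of 25 solute carriers, 18 were higher in capillary than in arterial cells in all 6 mice and 4 were lower (background 25.6% and 20.3%), whereas 11 were higher and 4 lower than in venous cells (16% and 7.64%). *Slco1a4*, an organic anion and thyroid hormone carrier, had 2170 to 2629 CPM (median 2449) in capillary cells, 1272 to 1732 CPM (median 1415) in arterial cells and 1548 to 2098 CPM (median 1961) in venous cells. *Slc7a5*, the large neutral amino acid carrier, had 629 to 724 CPM (median 691), 268 to 382 CPM (median 315) and 356 to 520 CPM (median 429). Not every carrier followed. *Slc2a1*, the glucose carrier, was lower in capillary than in arterial cells in every mouse, at 1290 to 1525 CPM (median 1402) against 1466 to 1681 CPM (median 1532), as was the taurine carrier *Slc6a6* at 1681 to 2164 CPM (median 1816) against 2140 to 2658 CPM (median 2343). Of the efflux pumps, *Abcg2* had 879 to 976 CPM (median 927) against 507 to 633 CPM (median 568) in arterial cells.

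Genes of the neighbouring zones were compared next. All 14 arterial genes outside the rule were lower in capillary than in arterial cells in every mouse, while against venous cells 5 were higher and 2 lower in every mouse. *Alpl*, alkaline phosphatase, had 63.7 to 90.5 CPM (median 80.1) in capillary cells, 340 to 435 CPM (median 362) in arterial cells and 2.41 to 23.2 CPM (median 13.7) in venous cells. *Dll4*, a Notch ligand of arterial endothelium, had 52.8 to 68.4 CPM (median 58.9), 120 to 149 CPM (median 134) and 13.0 to 34.8 CPM (median 24). These 2 genes, picked after their values were seen, had no overlap between the 3 zones, which was not so for most of the list. Of 12 venous genes outside the rule, 11 were lower in capillary than in venous cells in every mouse, and 9 were higher than in arterial cells. *Slc38a5*, a glutamine carrier, had 127 to 233 CPM (median 203) in capillary cells, 11.4 to 34.0 CPM (median 24.1) in arterial cells and 361 to 638 CPM (median 479) in venous cells. *Nr2f2*, the transcription factor COUP-TFII that specifies venous identity, had 84.7 to 114 CPM (median 104), 28.1 to 54.8 CPM (median 34.3) and 306 to 477 CPM (median 377). *Vwf*, which encodes von Willebrand factor, was near its arterial level in capillary cells, at 237 to 284 CPM (median 256) against 164 to 245 CPM (median 221), and at 984 to 1266 CPM (median 1155) in venous cells.

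Among genes with at least 20 CPM in capillary cells, a filter they meet through the class where they are high, those outside the rule with the largest mean ratio of capillary over arterial level were *F5* (11.6), which encodes coagulation factor V, *Sdk1* (11.3), a cell adhesion molecule, *Cyp2e1* (10.6), a cytochrome P450, and *Wnt5a* (8.56), a Wnt ligand. *F5* was at 19.0 to 28.5 CPM (median 23.4) in capillary cells and 1.3 to 2.9 CPM (median 1.9) in arterial cells. *Tmsb10*, which encodes an actin-binding thymosin, had 1547 to 2735 CPM (median 1948) against 306 to 514 CPM (median 387). *Wnt5a* and *Tmsb10* were higher still in venous cells, where *Wnt5a* had 117 to 181 CPM (median 151) and *Tmsb10* 2352 to 4130 CPM (median 3324). Over venous cells, *Fgf13* had one of the largest ratios (8.31), with 61.9 to 128 CPM (median 74.4) in capillary cells and 2.6 to 26.0 CPM (median 8.3) in venous cells. *Acta2* (7.92) and *Tagln* (8.24) of smooth muscle and *Hba-a1* (6.25) of erythroid cells were in the same list, and the part of foreign RNA in it was not tested.

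Within the capillary class a gradient remained. Cells with 1 arteriolar and no venous rule UMI (1872 cells) were set beside cells with 1 venous and no arteriolar UMI (282 cells, 15 to 83 per mouse) and cells with neither (8004). *Cxcl12* had 2064 to 3434 CPM (median 3093) on the arteriolar side, 1593 to 2838 CPM (median 1994) in cells with neither, and 328 to 1119 CPM (median 780) on the venous side. In the other direction, *Slc38a5* had 85.1 to 149 CPM (median 108), 128 to 246 CPM (median 210) and 344 to 589 CPM (median 383). *Alpl*, *Ivns1abp* and *Dll4* were likewise higher on the arteriolar side in 6 of 6 mice, by mean ratios of 7.65, 2.74 and 4.52. *Il1r1*, the receptor for interleukin-1, and *Nr2f2* were lower there in 6 of 6 mice, with mean ratios of 0.15 and 0.22. The cells on the venous side were deeper, with medians of 3298 to 8749 UMIs per mouse against 3078 to 5598 UMIs on the arteriolar side, and a deeper cell is more likely to show any 1 UMI.

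Capillary cells made up 44.9%, 45.0% and 42.1% of the endothelial cells of WT mice and 47.1%, 50.3% and 41.9% of those of *TgApp* ArcSwe mice. The groups overlapped, with a mean of 44.0% ± 1.65 (SD, n = 3) and 46.5% ± 4.24 (SD, n = 3), a difference of 2.44 percentage points (exact two-sided permutation test, p = 0.5, where 3 mice against 3 cannot go below 0.1). After each cell was thinned to 2000 UMIs, which left out 1089 shallower endothelial cells of WT mice and 1759 of *TgApp* ArcSwe mice, the shares were 42.8% ± 1.27 and 45.4% ± 6.10 (SD, n = 3 each, p = 0.6 in the same exact test). The difference was 0.513 percentage points without *TgApp* ArcSwe replicate 2 and 4.71 without *TgApp* ArcSwe replicate 3, and 3.76 without both mice numbered 3. A loss or gain of capillary cells was not detectable with these mice.

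The genotypes were then compared gene by gene on the summed counts. Of 12046 genes tested in capillary cells, none (0%) had an adjusted p under 0.05 in the quasi-likelihood test of edgeR. The error in this test comes from the spread between the 3 mice within each genotype, moderated over all genes. At an unadjusted p under 0.05 there were 526 genes (4.37%), of which 297 (2.47%) had a higher and 229 (1.9%) a lower level in *TgApp* ArcSwe mice. The Wald test of DESeq2 on the same sums called 6 genes (0.0498%) at an adjusted p under 0.05 and had 310 at an unadjusted p under 0.05. The 6 were *H2-Q6*, *Lsamp*, *Gm42047*, *B2m*, *Iigp1* and *Nr1d1*, each with a log2 fold change above 0. The CPM of 1264 genes (10.5%) did not overlap between the genotypes, 409 (3.4%) being higher and 855 (7.1%) lower in *TgApp* ArcSwe mice, and 49.6% of all genes had a log2 fold change above 0. In the following, the gene groups are read against these shares.

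Genes of antigen presentation by MHC class I had log2 fold changes that were mostly above 0. MHC class I molecules show peptides from inside the cell to CD8 T cells, with *B2m* as their common light chain, and interferons are known to raise them in endothelium. Of 16 genes of this list, 15 had a log2 fold change above 0 (49.6% of all genes). In edgeR, 11 had an unadjusted p under 0.05 (4.37% of all genes). CPM were higher in all *TgApp* ArcSwe mice than in any WT mouse for 9 genes (3.4%). None passed the adjusted threshold in the main edgeR fit. With the replicate number as a block in edgeR, *H2-Q6* passed (adjusted p = 0.0218). With no filter on low counts, *H2-Q6* (adjusted p = 0.00232 in edgeR) and *H2-Q7* (0.0272) passed. The median log2 fold change was 0.44, against 0.00 over all genes.

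The classical heavy chain *H2-K1* had 841, 537 and 716 CPM in WT mice and 1138, 886 and 1320 CPM in *TgApp* ArcSwe mice, which gave 0.71 as the log2 fold change (SE 0.19, adjusted p = 0.067 in DESeq2 and 0.970 in edgeR). *B2m* (chr2:122147686-122153083, GRCm38, plus strand) had 775, 636 and 938 CPM against 1168, 1044 and 1328 CPM, a log2 fold change of 0.62 (SE 0.15, adjusted p = 0.0179 in DESeq2 and 0.970 in edgeR). For *B2m* and *H2-K1* alike, WT replicate 2 was the lowest library and *TgApp* ArcSwe replicate 3 the highest, and the groups did not overlap. Of the nonclassical genes of the Qa region, *H2-Q6* (chr17:35424850-35430055, plus strand) had 32.4, 14.6 and 29.6 CPM against 81.7, 55.4 and 80.2 CPM. Its log2 fold change was 1.55 (SE 0.26, adjusted p = 1.1e-05 in DESeq2 and 0.970 in edgeR). *H2-Q7* (chr17:35439155-35443773, plus strand), its neighbour, had 63.4, 19.7 and 61.6 CPM against 130, 107 and 161 CPM, a log2 fold change of 1.5 (SE 0.35, adjusted p = 0.735 in DESeq2 and 0.970 in edgeR). The 2 genes are near-identical copies, so reads may have been split between them or dropped, and their separate values are uncertain. In arterial cells of the same mice the ranges of *B2m* (741 to 1476 CPM, median 1176) and *H2-K1* (590 to 1534 CPM, median 971) overlapped those of capillary cells. Within every mouse *B2m* was lower in capillary than in arterial cells. Its log2 ratio of genotype means was alike in the zones, at 0.59 in capillary, 0.59 in arterial and 0.60 in venous cells.

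Interferon-induced genes pointed the same way. Of 30 genes of the response, 29 had a log2 fold change above 0, 14 an unadjusted p under 0.05 (4.37% of all genes) and 8 non-overlapping CPM that were higher in *TgApp* ArcSwe mice (3.4%), while 1, *Irf9*, did not overlap in the opposite direction. The median log2 fold change was 0.33. *Iigp1*, a GTPase of the defence against intracellular parasites, had 68.8, 62.4 and 68.3 CPM in WT mice and 109, 83.2 and 115 CPM in *TgApp* ArcSwe mice (log2 fold change 0.66, SE 0.12, adjusted p = 0.0254 in DESeq2 and 0.970 in edgeR). *Gbp3*, a guanylate-binding protein, had 93.5, 72.7 and 78.6 CPM against 118, 112 and 115 CPM (log2 fold change 0.52, SE 0.10). *Irf7*, the transcription factor that amplifies type I interferon, had 47.5, 38.0 and 34.5 CPM against 72.2, 52.0 and 73.8 CPM (log2 fold change 0.75, SE 0.17). Every WT value of these 3 genes lay below every *TgApp* ArcSwe value. *Ifit3b*, a member of the family that binds viral RNA, had 16.4, 12.1 and 12.0 CPM against 24, 19.4 and 26.8 CPM (log2 fold change 0.82, SE 0.17). *Ifitm3*, a membrane protein that blocks virus entry, had 795, 712 and 783 CPM against 1030, 835 and 1109 CPM (log2 fold change 0.40, SE 0.13). *Bst2*, which tethers budding virus, overlapped, with 204, 170 and 186 CPM against 220, 168 and 249 CPM (log2 fold change 0.22, SE 0.14).

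The size of the difference in both lists depended on which cells and mice entered. With the 2545 capillary cells that held no UMI of a set of microglial genes that includes *C1qa*, *C1qb*, *C1qc*, *Ctss* and *P2ry12* (170 to 796 cells per mouse), the median log2 fold change was 0.29 for MHC class I, with 14 of 16 genes above 0, and 0.19 for the interferon response, with 23 of 30 above 0. The log2 fold change in these cells was 0.37 for *Iigp1*, 0.34 for *Gbp3* and 0.44 for *Ifit3b*, and 0.58 for *B2m*. Markers of other cells had median log2 fold changes in them of 1.28 for the 6 microglial markers tested, 1.42 for 4 pericyte markers, 0.70 for 4 smooth muscle markers and 1.42 for the 1 astrocyte marker tested, all above 0, and -0.69 for 5 erythroid markers, all below 0. Without both mice numbered 3, the median was 0.38 for MHC class I, with 14 of 16 above 0, and 0.23 for the interferon response, with 25 of 30 above 0. Markers of other cells then had medians of 0.63 for microglia, with 12 of 12 above 0, 0.20 for pericytes, with 7 of 9 above 0, and 0.62 for astrocytes, with 3 of 3 above 0, -0.54 for smooth muscle, with 0 of 4 above 0, -0.76 for platelets, with 0 of 3 above 0, and -0.10 for erythroid cells, with 1 of 5 above 0, and their part in the result was not tested.

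The promoters of 3 of these genes are shown because they hold GAAA followed, after 2 bases of any kind, by a second GAAA, the core of the interferon-stimulated response element to which interferon regulatory factors bind. Each sequence is the 250 bases before the start of the gene in RefSeq (GRCm38.p6), 5′ to 3′ on the plus strand, which is the strand of all 3 genes, with matches on either strand in capitals. In *Gbp3* (chr3:142559794-142560043) 2 matches overlap, from 45 to 36 and from 39 to 30 bases before the start, and RefSeq lists 2 starts for this gene. In *Ifit3b* (chr19:34607707-34607956) they lie 188 to 179 and 154 to 145 bases before the start, and in *B2m* (chr2:122147437-122147686) 139 to 130 bases before it.
Gbp3: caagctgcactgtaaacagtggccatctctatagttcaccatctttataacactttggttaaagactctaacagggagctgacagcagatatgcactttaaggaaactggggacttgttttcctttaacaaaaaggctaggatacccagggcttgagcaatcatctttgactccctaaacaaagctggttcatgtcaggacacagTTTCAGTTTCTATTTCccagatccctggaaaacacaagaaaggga
Ifit3b: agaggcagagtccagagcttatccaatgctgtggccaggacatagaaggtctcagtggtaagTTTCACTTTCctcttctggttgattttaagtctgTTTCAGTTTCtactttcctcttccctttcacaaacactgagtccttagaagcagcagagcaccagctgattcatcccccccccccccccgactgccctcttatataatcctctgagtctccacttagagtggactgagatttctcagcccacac
B2m: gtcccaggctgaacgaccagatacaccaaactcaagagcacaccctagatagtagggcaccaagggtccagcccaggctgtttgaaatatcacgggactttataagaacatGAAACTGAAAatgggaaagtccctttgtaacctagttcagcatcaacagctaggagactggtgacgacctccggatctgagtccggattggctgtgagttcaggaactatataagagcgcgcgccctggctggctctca
This motif, searched on both strands, was found in 2.98% of 32851 RefSeq promoters of the same length. It was in 10 of the 22 interferon response genes with a promoter in the RefSeq set (*Bst2*, *Gbp2*, *Gbp3*, *Gbp7*, *Ifit1*, *Ifit3*, *Ifit3b*, *Isg15*, *Stat2* and *Trim30a*), in 3 of 13 MHC class I genes (*B2m*, *H2-T22* and *H2-T23*), and in 3 of the 18 promoters matched among the 24 leading genes of the comparison. A match is a run of letters, and binding was not measured.

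Genes of the circadian clock formed the other group. In the clock, CLOCK and BMAL1, the product of *Arntl*, drive *Nr1d1*, *Nr1d2* and *Dbp*, and the first 2 of these repress *Arntl* in turn. *Nr1d1* had 51.2, 41.8 and 33.3 CPM in WT mice and 84.3, 95.9 and 59.9 CPM in *TgApp* ArcSwe mice (log2 fold change 0.94, SE 0.21, adjusted p = 0.0261 in DESeq2 and 0.970 in edgeR). *Nr1d2* had 49.3, 49.1 and 46.5 CPM against 69.2, 71.5 and 64.4 CPM (log2 fold change 0.52, SE 0.10). *Dbp*, a transcription factor of clock output, had 18.7, 18.1 and 16.7 CPM against 31.9, 47.2 and 22.3 CPM (log2 fold change 0.92, SE 0.25). No value of these genes in a WT mouse reached any value in a *TgApp* ArcSwe mouse. *Arntl* lay on the other side, with 55.3, 57.7 and 63.0 CPM against 39.0, 42.2 and 46.5 CPM (log2 fold change -0.44, SE 0.10). *Clock* had 104, 106 and 113 CPM against 85.1, 96.3 and 96.6 CPM (log2 fold change -0.19, SE 0.08). Of 13 genes of the *Nr1d1* and *Per* families and clock outputs, 12 had a log2 fold change above 0 and 3 an unadjusted p under 0.05 (4.37% of all genes), with a median of 0.26, which was 0.45 without WT replicate 2, 0.36 without both mice numbered 3 and 0.39 in capillary cells without microglial UMIs. A second list of 6 clock genes held the activators *Arntl*, *Clock*, *Npas2* and *Rora* and the repressors *Cry1* and *Nfil3*. Of these, 5 had a log2 fold change below 0 and 2, *Arntl* and *Clock*, an unadjusted p under 0.05, with a median of -0.31 that was -0.17 without WT replicate 3. Without both mice numbered 3, the log2 fold change was 0.96 for *Nr1d1*, 0.52 for *Nr1d2*, 1.07 for *Dbp* and -0.47 for *Arntl*. The E-box CACGTG, which CLOCK and BMAL1 bind, was found in 6.02% of all promoters of the RefSeq set. Of the first list, 4 of 11 genes with a promoter held it, *Bhlhe41*, *Ciart*, *Per1* and *Tef*. Of the second list, 1 of 6 held it, *Cry1*. *Nr1d1*, *Nr1d2*, *Dbp* and *Arntl* were not among the genes with a match. The time of day at which the brains were taken is not given in the sources used here, so the phase of the clock and the genotype cannot be told apart.

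**Figure D3:**
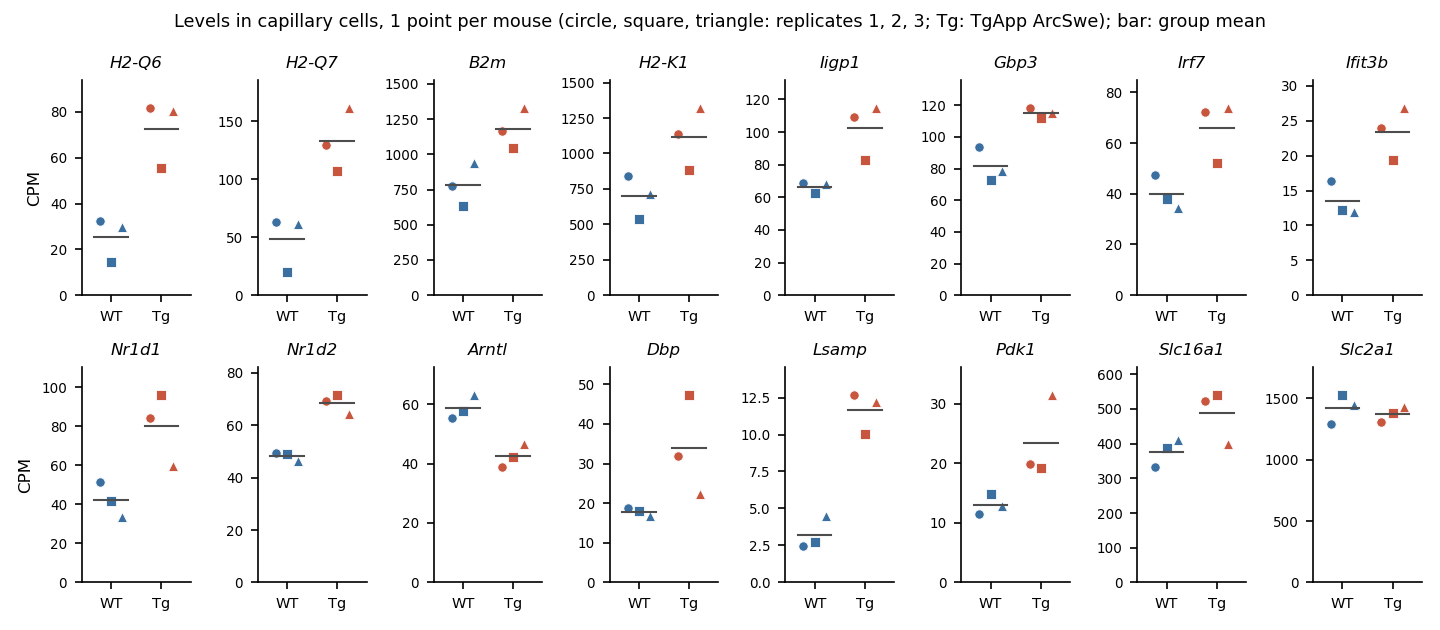
CPM in capillary cells (vertical axes, each from 0) of 16 genes in 3 WT and 3 *TgApp* ArcSwe mice (horizontal axis), 1 point per mouse with the group mean as a bar. *B2m*, *Iigp1* and *Nr1d1* do not overlap between the genotypes, *Arntl* does not overlap in the opposite direction, and *Slc16a1* and *Slc2a1* overlap.

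The 2 genes with the smallest p in edgeR belonged to none of these groups. *Lsamp* (chr16:39984361-42181679, plus strand), which encodes an adhesion molecule best known from neurons, had 2.43, 2.74 and 4.5 CPM in WT mice and 12.7, 10.0 and 12.2 CPM in *TgApp* ArcSwe mice, from sums of 20, 21 and 27 UMIs and of 125, 48 and 95 UMIs. Its log2 fold change was 1.91 (SE 0.25, adjusted p = 0.239 in edgeR and 3.6e-05 in DESeq2). *Gm42047* (chr8:121833247-121841178, plus strand), a long noncoding RNA, had 2.56, 1.70 and 2.00 CPM against 6.78, 8.15 and 8.60 CPM, from 21, 13 and 12 UMIs and 67, 39 and 67 UMIs (log2 fold change 1.92, SE 0.25, adjusted p = 0.239 in edgeR and 0.0014 in DESeq2). Both were low in every library and separated the genotypes without overlap. In capillary cells without microglial UMIs they had too few counts to be tested. The 4 neuron markers separated the genotypes as well, at a summed level of 2.43, 3.13 and 2.00 CPM in WT mice against 3.85, 6.69 and 4.88 CPM in *TgApp* ArcSwe mice, led by *Meg3* (log2 fold change 1.83), and their part in the result was not tested. Of the 1264 genes that did not overlap between the genotypes, 409 were higher and 855 lower in *TgApp* ArcSwe mice. Of the 24 among them with the smallest p, picked from these same values, 21 had a log2 fold change above 0. The other three, *Slfn3* (26.5, 31.2 and 38.5 CPM against 20.04, 18.0 and 19.9 CPM), *Arntl* and *Nck1*, an adaptor of tyrosine kinase signalling (144, 136 and 143 CPM against 110, 103 and 112 CPM), were below 0.

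No gene of metabolism passed the adjusted threshold. Of 20 genes of glycolysis and hypoxia, 16 had a log2 fold change above 0, 3 an unadjusted p under 0.05 (4.37% of all genes), and the median was 0.10 (0.03 without WT replicate 3 and 0.17 without WT replicate 2). *Pdk1*, the kinase that turns off pyruvate dehydrogenase, had 11.4, 14.9 and 12.8 CPM in WT mice and 19.8, 19.2 and 31.4 CPM in *TgApp* ArcSwe mice (log2 fold change 0.88, SE 0.21). *Ankrd37*, a gene induced by hypoxia, had 118, 105 and 57.8 CPM against 161, 158 and 155 CPM (log2 fold change 0.77, SE 0.24). WT replicate 3 was the lowest library for *Ankrd37*, and all *TgApp* ArcSwe values lay close together. Without both mice numbered 3, the log2 fold change was 0.53 for *Ankrd37* and 0.59 for *Pdk1*. *Eno1*, an enolase, had 98.2, 102 and 92.4 CPM against 138, 142 and 100 CPM and overlapped (log2 fold change 0.40, SE 0.15).

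The barrier programme gave no such group. Of 25 solute carriers, 19 had a log2 fold change above 0 and 1 an unadjusted p under 0.05, with a median of 0.06. That gene was *Slc16a1*, with 333, 387 and 411 CPM in WT mice and 524, 539 and 398 CPM in *TgApp* ArcSwe mice (log2 fold change 0.40, SE 0.15, adjusted p = 0.970 in edgeR), and *TgApp* ArcSwe replicate 3 lay within the WT range. Of the 7 ABC transporters, 4 had a log2 fold change above 0, with a median of 0.07, and *Abcb1a*, the P-glycoprotein pump, had 1345, 1404 and 1311 CPM against 1399, 1542 and 1302 CPM. Of 18 junction genes, 8 were above 0, with a median of -0.02. *Tjp1*, which anchors tight junctions to actin, had 1082, 1144 and 1335 CPM against 1053, 1185 and 1217 CPM. Among 13 genes of caveolae and transcytosis the median was 0.01, among 20 of the Wnt pathway that maintains the barrier 0.01, among 17 of VEGF, Tie and Notch signalling -0.04, and among 17 of basement membrane and integrins 0.04. In the ABC transporter, junction, transcytosis, Wnt, VEGF and basement membrane lists, 0 genes had an unadjusted p under 0.05 in edgeR and none an adjusted p under 0.05 in DESeq2. Over all alternatives, the 2 mice per genotype included, the medians of these 6 lists and of the solute carriers stayed between -0.12 and 0.12. Iron genes had a median of 0.07 over 12 genes, with *Tfrc* at 449, 384 and 368 CPM against 544, 543 and 401 CPM (log2 fold change 0.34, SE 0.15).

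Genes that handle amyloid precursor protein were near 0 as well. Of 19 tested, 10 had a log2 fold change above 0, 0 an unadjusted p under 0.05 in edgeR, 0 an adjusted p under 0.05 in DESeq2, and the median was 0.00 (0.02 without both mice numbered 3). *App* had 1542, 1488 and 1416 CPM in WT mice and 1444, 1529 and 1403 CPM in *TgApp* ArcSwe mice (log2 fold change 0.00, SE 0.11). This counts the mouse gene as the authors mapped it, and the human transgene was not analysed here. *Apoe*, the lipid carrier that binds amyloid, had 953, 751 and 830 CPM against 973, 869 and 999 CPM (log2 fold change 0.19, SE 0.12).

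The values of stress genes depended on single libraries. Of 20 immediate early and stress genes, 16 had a log2 fold change above 0, with a median of 0.12. Their summed level was 35085, 39576 and 17442 CPM in WT mice and 37999, 30420 and 30587 CPM in *TgApp* ArcSwe mice, so that WT replicate 3 alone was low. The median was -0.16 without WT replicate 3, just below 0 without *TgApp* ArcSwe replicate 1 and 0.40 without WT replicate 2. Without both mice numbered 3, 4 of the 20 were above 0 and the median was -0.11. Of 13 glucocorticoid-responsive genes, 5 were above 0, with a median of -0.19 that was 0.09 without WT replicate 2 and -0.05 without cells with microglial UMIs. Among 16 genes of endothelial activation, 12 were above 0 and 2 had an unadjusted p under 0.05, with a median of 0.16 that was 0.02 without *TgApp* ArcSwe replicate 1. One of them was *Icam2*, an adhesion molecule for leukocytes, with 194, 190 and 215 CPM against 216, 226 and 247 CPM (log2 fold change 0.23, SE 0.09).

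**Figure D4:**
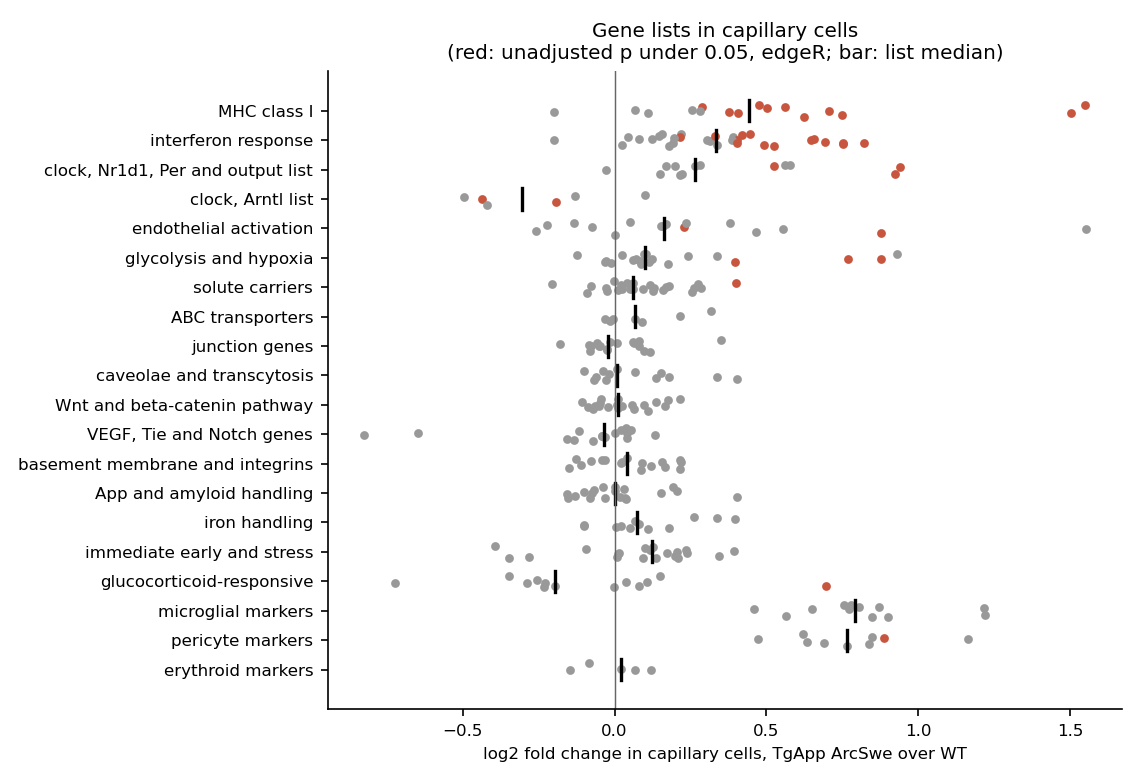
Log2 fold change in capillary cells, *TgApp* ArcSwe over WT (horizontal axis), of every tested gene of 20 lists (vertical axis, 1 point per gene, spread at random within the row); red points have an unadjusted p under 0.05 in edgeR and black bars are list medians. MHC class I (median 0.44) and the interferon response (0.33) lie to the right of 0 and the clock list with *Arntl* (-0.31) to the left. Microglial (0.79) and pericyte (0.77) markers also lie to the right, at -0.34 and 0.02 without *TgApp* ArcSwe replicate 3 and at 0.63 and 0.20 without both mice numbered 3.

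Whether the difference between the genotypes was particular to capillaries was tested as the interaction of zone and genotype on sums of the same mice. Against arterial cells, edgeR called 1 of 12878 genes (0.00777%) at an adjusted p under 0.05, and 608 (4.72%) had an unadjusted p under 0.05. This gene was *Vcam1* (chr3:116109949-116129688, minus strand), an adhesion molecule that leukocytes bind on activated endothelium. In capillary cells it had 146, 137 and 243 CPM in WT mice and 196, 108 and 121 CPM in *TgApp* ArcSwe mice. The log2 fold change there was -0.26 with all mice, but 0.14 without both mice numbered 3 and 0.16 in cells without microglial UMIs. In arterial cells it had 141, 87.6 and 180 CPM against 270, 156 and 254 CPM. The genotypes overlapped in both zones, but each *TgApp* ArcSwe mouse had more *Vcam1* in arterial than in capillary cells, and each WT mouse had less. The genotype effect was lower in capillary cells by a log2 difference of -1.06 (SE 0.15, adjusted p = 0.0264 in edgeR). The adjusted p in edgeR was 0.0785 without WT replicate 2, 0.123 without WT replicate 3 and 0.0757 without *TgApp* ArcSwe replicate 3, and 0.165 with a log2 difference of -0.80 without both mice numbered 3. *Icam1*, its companion adhesion molecule, was next, with 332, 372 and 211 CPM against 554, 321 and 370 CPM in capillary cells and 78.9, 101 and 68.8 CPM against 188, 135 and 172 CPM in arterial cells (log2 difference -0.57, adjusted p = 0.350 in edgeR). Of 16 activation genes, 6 had an unadjusted p under 0.05, all with the smaller effect in capillary cells. Of 16 MHC class I genes 2 had one, both with the larger effect in capillary cells. Of 30 interferon response genes 5 had one, 4 of them with the smaller effect in capillary cells. All 5 erythroid markers had an unadjusted p under 0.05 as well, with the larger effect in capillary cells.

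Against venous cells, which numbered 57, 47 and 62 in WT mice and 76, 19 and 100 in *TgApp* ArcSwe mice, edgeR called 1 of 10873 genes (0.0092%) at an adjusted p under 0.05, and 510 (4.69%) had an unadjusted p under 0.05. Each fit that left out a mouse called 6 to 15 genes. With all mice, the gene called was *Cxcl2*, a chemokine that draws neutrophils. In capillary cells it had 24.3, 31.3 and 7.83 CPM in WT mice and 41.1, 20.9 and 27.8 CPM in *TgApp* ArcSwe mice, and in venous cells 188, 295 and 72.1 CPM against 141, 118 and 104 CPM. WT replicate 3 was lowest in both zones. The genotype effect was higher in capillary cells by a log2 difference of 1.19 (SE 0.21, adjusted p = 0.00948 in edgeR), and its adjusted p in edgeR was 0.0592 without WT replicate 2 and 0.0736 without *TgApp* ArcSwe replicate 1. Without both mice numbered 3 the difference was 1.16. *Cxcl1*, its close relative, was next, with 49.0, 78.3 and 23.2 CPM against 94.3, 49.1 and 50.2 CPM in capillary cells and 270, 591 and 129 CPM against 289, 241 and 188 CPM in venous cells (log2 difference 0.83, adjusted p = 0.0587 in edgeR). In both chemokine genes the venous level was several times the capillary level in every mouse. Of 17 activation genes, 4 had an unadjusted p under 0.05, all with the larger effect in capillary cells, and of 20 immediate early and stress genes 8 had one, 7 of them with the smaller effect in capillary cells.

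**Figure D5:**
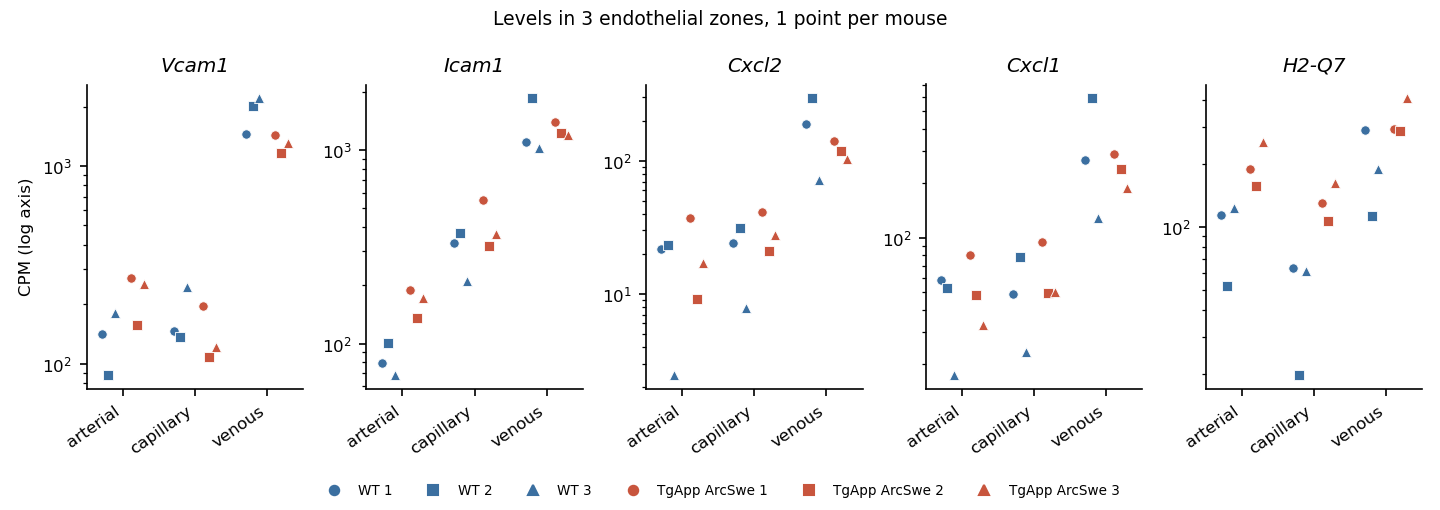
CPM on log axes (vertical, each panel with its own range) of 5 genes in arterial, capillary and venous endothelial cells (horizontal), 1 point per mouse. *Vcam1* is higher in arterial cells of *TgApp* ArcSwe than in their capillary cells, and *Cxcl2* and *Cxcl1* are highest in venous cells.

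The promoters of the 2 chemokine genes are shown because each holds GGGA followed, after 1 base of any kind, by TTTCC, a form of the site bound by NF-kappaB, the transcription factor of inflammation. The sequences are again the 250 bases before the RefSeq start (GRCm38.p6, plus strand for both genes), with the match in capitals, from 71 to 62 bases before the start in *Cxcl1* (chr5:90890995-90891244) and from 97 to 88 bases in *Cxcl2* (chr5:90903649-90903898).
Cxcl1: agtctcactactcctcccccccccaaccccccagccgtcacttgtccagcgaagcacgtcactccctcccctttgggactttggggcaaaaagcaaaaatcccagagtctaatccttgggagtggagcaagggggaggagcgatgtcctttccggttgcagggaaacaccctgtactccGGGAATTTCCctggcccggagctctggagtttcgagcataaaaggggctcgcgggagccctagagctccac
Cxcl2: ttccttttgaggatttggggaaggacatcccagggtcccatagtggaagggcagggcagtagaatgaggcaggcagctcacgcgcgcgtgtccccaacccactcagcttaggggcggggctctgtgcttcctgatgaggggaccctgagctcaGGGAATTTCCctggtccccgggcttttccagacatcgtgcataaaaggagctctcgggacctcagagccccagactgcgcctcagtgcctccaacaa
Of 32851 promoters 0.356% hold this motif on either strand, and among the 13 activation genes with a promoter in the RefSeq set it was in 3 (*Csf1*, *Cxcl1* and *Nfkbia*). *B2m*, shown above, also holds it, from 126 to 117 bases before its start, where it does not overlap the interferon motif.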

How the data were processed

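The authors deposited unnormalized UMI counts per gene and cell, 1 library per mouse, made with Cell Ranger 7.0.0 per the submitters' processing notes, against mm10 (GRCm38) with *Clec7a* and human *NOTCH3* added. As in the study, a cell was kept if it had 500 to 4500 genes detected and less than 10% of its UMIs from mitochondrial genes. No doublet caller was run beyond this upper limit. Whole cells were classed by fixed UMI thresholds, not by clustering, and counts were summed per mouse and class. The deposited counts of 32287 genes were reduced by 2851 ribosomal, mitochondrial, pseudogene and Rik genes, as in the study. Genotypes were compared with edgeR 4.0.16 (filterByExpr, TMM, quasi-likelihood, Benjamini-Hochberg over all genes tested, called at an adjusted p of 0.05) and, as an alternative, with DESeq2 1.42.0. Interactions had the mouse as a block. SE is the absolute log2 fold change over the square root of F. CPM use all UMIs of the class and no TMM factor. The edgeR genotype test was also run on counts simulated from the means, dispersions and library sizes of these data. With 200 of 12046 genes changed by a log2 of 1, it recovered 127 and called 6 unchanged genes. With a log2 change of 2 it recovered 181 of 200 and called 15 unchanged genes. The interaction and permutation tests were not simulated.

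Named are the 24 genes with the smallest p among those without overlap, the rule genes, of each list the 2 most abundant members and up to 4 with the smallest p (those that carry a result), 6 genes per interaction, *App*, *Casp4* and *Nnt*, and the genes with the largest zone ratios. *Dll4*, *Il1r1*, *Nr2f2*, *Hmcn1*, *Slc7a5* and the other zone genes of the text were chosen from their lists after their values were seen. The members and lists were chosen with earlier results of these data known. Counting error, set by the summed UMIs, is part of the spread between mice that the p-values measure. Single values of some genes of the lists are not reported here.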

Additional observations from a re-analysis of the deposited data

Results flagged for a closer look

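In 2 genes the effect of genotype differed between zones by a test of the difference itself (edgeR, interaction of zone and genotype over 6 mice, adjusted over all genes tested). For *Vcam1* the log2 effect was lower in capillary than in arterial cells, with a difference of -1.06 (SE 0.15, adjusted p = 0.0264 in edgeR), with a log2 ratio of genotype means of -0.31 in capillary cells and 0.74 in arterial cells. The sign in capillary cells was not stable, with a log2 fold change in edgeR of -0.26 with all mice and 0.14 without both mice numbered 3. Over the 6 fits that each left out a mouse the difference lay between -1.23 and -0.85, and 3 of these fits kept an adjusted p under 0.05. For *Cxcl2* the log2 effect was higher in capillary than in venous cells by 1.19 (SE 0.21, adjusted p = 0.00948 in edgeR). The venous values rest on 19 to 100 cells per mouse, and the genotypes overlapped in both zones. Its difference lay between 1.08 and 1.31 over the 6 fits that each left out a mouse. Of these fits, 4 kept an adjusted p under 0.05 in edgeR. Each of the 6 fits called 6 to 15 genes, against 1 with all mice, so their p-values are not read as a sign of stability.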

How the results depend on the processing

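The count of genes called between the genotypes in capillary cells, 0, was also 0 with other size factors, with all genes kept, with at least 3 rule UMIs, with cells thinned to 2000 UMIs, with the stricter cell filter (lowest adjusted p 0.0782 in edgeR), without cells with mural or microglial UMIs, with cells with microglial rule UMIs kept, and in the 6 fits that each left out a mouse (0 to 0, with 377 to 1517 genes at an unadjusted p under 0.05, the most without WT replicate 3). It was 6 with DESeq2, 4 with no filter on low counts (*H2-Q6*, *Lsamp*, *Gm42047* and *H2-Q7*) and 9 without both mice numbered 3 (among them *Filip1l*, *Cpe*, *Nr1d1*, *Lsamp*, *Sdk1*, *Ttyh2*, *Bloc1s1* and *Rnaset2b*), the cause of which was not tested. This last setting, also for the share and the interactions, and the one that kept cells with microglial rule UMIs, were chosen after seeing the data. With the replicate number as a block it was 1 (*H2-Q6*, adjusted p = 0.0218 in edgeR). Deviations of same-numbered mice correlated at 0.397, -0.032 and 0.368. Every mouse except those numbered 2 correlated best with its own number, and the labels do not say whether a number marks a shared batch. The share of capillary cells gave p = 0.5 in the exact paired test, which with so few pairs cannot go below 0.05. The difference in that share kept its sign, at 0.513 to 4.71 percentage points over the fits without a mouse and 1.06 to 3.76 elsewhere. The count against arterial cells was 0 to 4 over the fits without a mouse. Against venous cells it was 6 to 15, and 14 without both mice numbered 3, where few residual degrees of freedom remain, and these larger counts are not read further. Of 425 values of the 24 leading genes and of 108 interaction values under alternatives, none changed sign. The leading genes were chosen for not overlapping and the interaction genes for a small p, so stable signs follow largely from the choice. Of 557 list medians 40 moved by more than the spread between mice, and 51, in 16 of 31 lists, had another sign, among them microglial markers (0.79 to -0.34 without *TgApp* ArcSwe replicate 3), stress genes (0.12 to -0.16 without WT replicate 3 and just below 0 without *TgApp* ArcSwe replicate 1), and junction and *App* lists, whose medians lie near 0.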

Other observations

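*Casp4*, an inflammatory caspase that the study names, had 19.4, 20.5 and 15.5 CPM in capillary cells of WT mice and 38.0, 20.1 and 27.3 CPM in those of *TgApp* ArcSwe mice, which overlap (log2 fold change 0.67, SE 0.23, adjusted p = 0.970 in edgeR). In arterial cells it had 16.4, 18.9 and 17.5 CPM against 42.8, 16.9 and 32.1 CPM, and in venous cells 84.3, 148 and 97.8 CPM against 134, 123 and 114 CPM. Of 25 caspase and Bcl2 family genes in capillary cells, 12 had a log2 fold change above 0 and 3 an unadjusted p under 0.05, with a median of -0.02. *Casp12*, another inflammatory caspase, had 21.9, 14.9 and 20.3 CPM against 32.0, 25.3 and 24.8 CPM without overlap (log2 fold change 0.56, SE 0.16, adjusted p = 0.970 in edgeR), and its log2 fold change was 0.18 without cells with microglial UMIs. *Angptl4*, an inhibitor of lipoprotein lipase, had 5.60, 5.61 and 5.16 CPM against 8.20, 10.7 and 7.57 CPM (log2 fold change 0.70, SE 0.20, adjusted p = 0.970 in edgeR). *Nnt*, which a deletion marks in C57BL/6J mice, was at 7 to 19 UMIs per mouse in capillary cells. Of 16 nitric oxide and vasoactive genes, 11 had a log2 fold change above 0 and 0 an unadjusted p under 0.05 in edgeR, and *Nos3*, the endothelial nitric oxide synthase, had 290, 274 and 270 CPM against 263, 289 and 239 CPM (log2 fold change -0.05, SE 0.11).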
